A study of Rattus norvegicus with 27 samples.

Results

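The striatum of Goto-Kakizaki (GK) rats was compared with that of streptozotocin (STZ) treated rats, using 6 of the 27 arrays of the series. All arrays labelled as striatum from these 2 diabetic models were taken, 3 per model. GK rats develop type 2 diabetes spontaneously and were sampled at 10 weeks of age with an average blood sugar of 13.9 mmol/l. STZ rats were Wistar males given an intravenous dose of 65 mg/kg at 6 weeks of age, kept for 4 weeks and sampled at 10 weeks with an average blood sugar of 26.34 mmol/l. The untreated Wistar males (7.64 mmol/l, 10 weeks, 3 arrays) stand beside them as the non-diabetic reference. Each array held RNA pooled from 3 animals, the 9 animals of a group gave all 3 regions, and the spread of single animals is therefore not seen. The 2 models differ in strain as well as in the kind of diabetes, so that a difference between them does not by itself tell strain and diabetes apart. The STZ rats shared the Wistar strain with the reference rats, whereas GK rats differed from the reference in both strain and diabetes.

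The striatum is the main input nucleus of the basal ganglia. Most of its nerve cells are medium spiny neurons, GABA-releasing cells that carry dopamine receptors D1 or D2 and make the peptides substance P or enkephalin. The GK strain was bred from Wistar rats by repeated selection for poor glucose tolerance and has impaired insulin secretion and insulin resistance. Streptozotocin is a glucose-like toxin taken up by pancreatic beta cells, which it kills, and the animals then lack insulin.

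A level is given throughout as the log2 of a probe's processed signal minus the log2 of the 75th percentile of its array, and a difference as the GK mean minus the STZ mean of these levels. A probe entered the comparison when the scanner software set it well above background in 2 or 3 pools of one of the models. A probe was called when its Benjamini-Hochberg adjusted p from limma was under 0.05 and its change was at least 2-fold, and "rose" or "fell" below means called higher or lower in GK than in STZ striatum. If no array of the dimmer group had the probe well above background, the change is given as a bound ("at least N-fold"), the mean of the brighter group over, per array of the dimmer group, the higher of the probe's own signal and the lowest signal well above background. Such a probe entered the striatal comparison through the brighter group alone. Its call used the measured means, so the bound of a called probe can be under 2-fold.

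The medium spiny neuron markers lay where the label puts them. Drd1, Drd2, Adora2a, Ppp1r1b and Tac1, which mark medium spiny neurons, and the brighter of 2 Penk probes lay higher on each of the 9 striatal arrays than on any of the 18 arrays of the other regions. Drd1, the dopamine D1 receptor, ranged from -0.10 to 0.90 in striatum, from -5.68 to -4.68 in hippocampus and from -5.19 to -2.67 in prefrontal cortex. None of these 6 genes was called between the models, and their differences ran from -0.34 (Drd1, SE 0.20) to 0.15 (Ppp1r1b, SE 0.23) for the probes that separated the regions. For Drd2, whose slide 6 offset (explained below) was 1.66, the difference of 0.05 turned to -1.41 (adjusted p = 0.0415) with slides 4 and 6 as a covariate.

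Some arrays stood apart before any comparison was made. All 3 GK striatal pools and control pool 1 were on slide 4, the STZ pools were on slides 1, 2 and 3, and control pools 2 and 3 were on slides 5 and 6, so no slide held both models and slide and model cannot be told apart within the striatum. Control pool 2 correlated with the STZ pools at 0.979 to 0.981 and with the GK pools at 0.946 to 0.961. Control pools 1 and 3 correlated with GK pools 1 and 3 at 0.982 to 0.988 and with the STZ pools at 0.974 to 0.983. With GK pool 2 they correlated less, at 0.97 and 0.966. GK pool 2 was the dimmest of the 27 arrays, with a 75th percentile of 690 against 932 to 1092 for the other GK striatal pools. The median SD of a probe was 0.289 in GK, 0.258 in control and 0.141 in STZ striatum.

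Of 30102 probes tested, 577 rose (1.92%) and 355 fell (1.18%), and the median difference over all of them was 0.05. The probes that rose were mostly dim. Of the 5 equal groups by mean level, the dimmest held 232 of the rises and 110 of the falls, and the brightest held 12 and 28. Of the rises, 142 were well above background on no STZ array, and of the falls 84 on no GK array. The pools of the 2 models did not overlap in 576 of the 577 rises and in all 355 falls. These probes were called for a difference between the same pools, so the lack of overlap is no further evidence. The share without overlap among all tested probes is not given here.

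**Figure D1:**
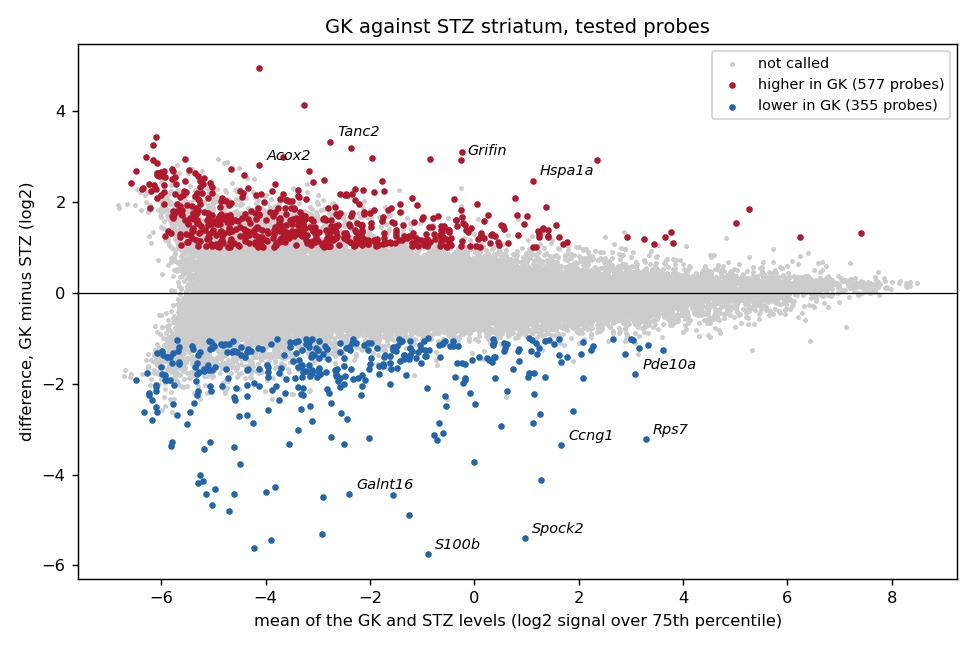
Difference between GK and STZ striatum (log2, vertical axis) against the mean level of the 2 groups (log2 signal over the array's 75th percentile, horizontal axis) for the tested probes, with called probes in colour. The 577 rises crowd at the dim end, while falls such as Spock2, Ccng1 and Rps7 stand among bright probes.

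The rises, more than the falls, were also higher on slide 6 arrays of the other regions. On slide 6 of the hippocampus and prefrontal cortex, which played no part in the striatal comparison, each array was set against the other 2 pools of its own group. The 577 probes that rose were higher there by a median of 0.34, and 45.2% of them by at least 0.5, against 8.2% of all tested probes. For the 355 probes that fell the median was -0.02 and 2.25% were higher by at least 0.5. This slide 6 offset is given below beside the genes it concerns. Each slide 6 array used for it was pool 3 of its group, so the offset cannot tell slide and pool apart. Slide 4 held striatal arrays only, so no such offset exists for it. In 237 of the rises, control pools 1 and 3 lay nearer to the GK mean and control pool 2, on slide 5, nearer to the STZ mean. In 224 of the falls, all 3 control pools lay nearer to the STZ mean. With the probes of an offset of at least 0.5 left out, 318 probes rose and 354 fell. With slide as a block over all 27 arrays, 71 rose, of which 47 were among the 577, and 123 fell, of which 98 were among the 355. On slide 4 only control pool 1 was not from GK rats, so the slide 4 term of this block rests on that array. Slide as the cause of a lost call was not tested. Of the called genes named below, 3 of 30 rises (Acox2, Agrp and Hspa1a) and 15 of 24 falls were called with this block as well. Jund could not be fitted with it, since its 1 GK value is also its 1 value on slide 4. The falls that were not were RT1-Bb, Tpcn2, Cdc25a, Cyp2d5, Rspo2, Aspa, Ogn, Ucp3 and Cdk10.

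**Figure D2:**
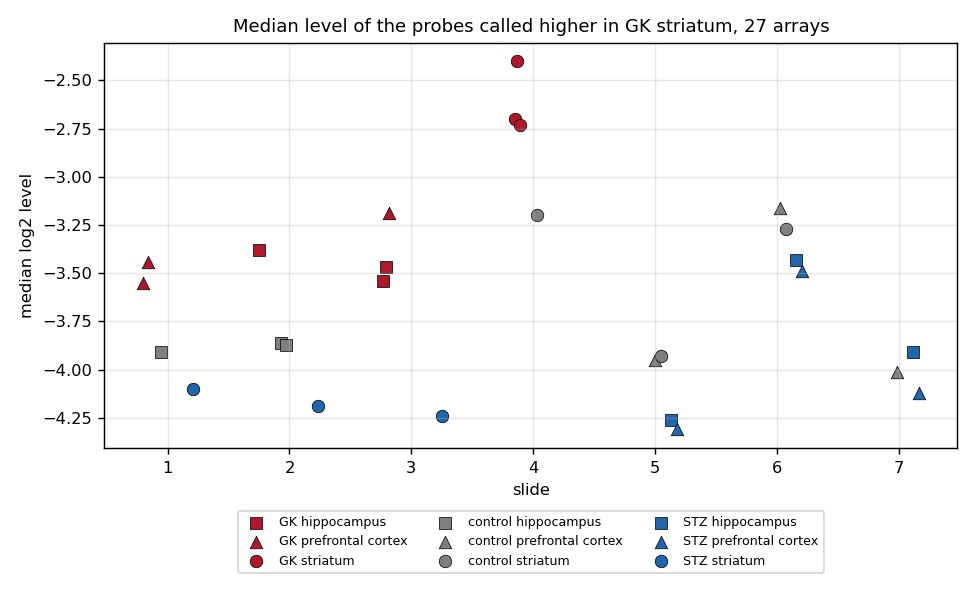
Median log2 level (vertical axis) of the 577 probes that rose, on each of the 27 arrays, ordered by slide (horizontal axis), with colour for the animal group and shape for the region. The arrays on slide 6 lie at -3.49 to -3.16 and control pool 1 on slide 4 at -3.20, while the STZ striatal pools lie at -4.24 to -4.10. The GK striatal pools, on slide 4, lie at -2.73 to -2.40. The probes were chosen for a difference between the GK and STZ striatal pools, so these pools differ by choice. Outside the striatum and off slide 6, the 6 GK arrays lie at -3.55 to -3.19 and the control and STZ arrays at -4.31 to -3.86.

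S100b showed the largest fall of all probes. It codes for the beta subunit of the calcium-binding S100 proteins, made chiefly by astrocytes. Its level was -4.12, -3.31 and -3.88 in the 3 GK pools, -3.90, -3.47 and -3.66 in the control pools, and 1.82, 2.07 and 2.07 in the STZ pools. The STZ pools were high and the other 6 pools low, with no overlap. The difference was -5.76 (SE 0.23, 54.1-fold, adjusted p = 6.38e-06). Against control, S100b was higher in STZ by 5.66 (adjusted p = 1.19e-05), while GK differed from control by -0.09 (adjusted p = 0.85). In hippocampus the STZ pools lay at 1.47 to 1.94 and the GK pools at -4.97 to -4.84, and in prefrontal cortex at 1.48 to 1.79 and -4.71 to -4.33.

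Spock2, which codes for testican-2, a proteoglycan of the extracellular matrix in brain, showed the next largest fall among named genes. Its level was -1.96, -1.32 and -1.93 in GK, 3.40, 3.69 and 3.89 in STZ, and 3.93, 3.69 and 4.14 in control striatum. Here the GK pools were low, and the STZ and control pools overlapped. The difference was -5.40 (SE 0.23, 42.1-fold, adjusted p = 6.38e-06), and Spock2 differed from control by -5.66 in GK (adjusted p = 7.69e-06) and by -0.26 in STZ (adjusted p = 0.69).

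These 2 genes were each read by 1 tested probe, and the letters of that probe are all the array sees of the transcript. The 60-base probes are printed because the largest differences rest on them alone.
S100b, probe A_43_P15530: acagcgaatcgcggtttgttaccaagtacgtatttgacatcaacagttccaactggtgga
Spock2, probe A_44_P152177: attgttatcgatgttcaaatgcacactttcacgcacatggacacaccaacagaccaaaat

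3 other genes were high in STZ striatum and near the limit of detection or low elsewhere. Cdc25a, a phosphatase that drives cell division, was at -3.98, -4.45 and -3.95 in STZ and at -7.90 to -7.25 in GK pools, where no array was well above background. It was at least 2.30-fold lower in GK (difference of the measured means -3.38, adjusted p = 7.4e-05), and at least 2.79-fold higher in STZ than in control, where it was also well above background on no array (difference of the measured means 3.67, adjusted p = 0.000136). Ucp3, a mitochondrial uncoupling protein of muscle, was at -4.83, -5.44 and -4.81 in STZ and at -8.06 to -7.40 in GK, at least 1.23-fold lower in GK (difference -2.63, adjusted p = 0.00057). Chrna5, a subunit of nicotinic acetylcholine receptors, was measured in every pool, at -4.19, -4.59 and -4.39 in GK, -1.73, -2.0 and -1.97 in STZ and -4.09 to -3.69 in control, and fell by 2.49 (SE 0.18, adjusted p = 0.00011). All 3 also fell in hippocampus and prefrontal cortex. Cdc25a and Ucp3 were well above background in neither GK nor control pools, so they entered the test through the STZ pools alone. Their p-values set signal against values not well above background, and the Ucp3 bound is under 2-fold. For S100b the GK and control pools overlapped, for Chrna5 the control pools lay just above the GK pools, and for all 4 the STZ pools lay above both.

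The more common pattern among the falls was that of Spock2. Of the 355, GK but not STZ was past the threshold against control for 192, STZ but not GK for 15, both for 1 and neither for 147. Of the 577 rises the counts were 130, 9, 1 and 437. Both contrasts use the same 3 control arrays. Some probes were not tested against control, as Cdc25a and Ucp3 in GK, and the counts do not set these apart. The probes were chosen for a difference between the models, and the shares over all tested probes are not given here. The counts therefore only describe these lists.

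**Figure D3:**
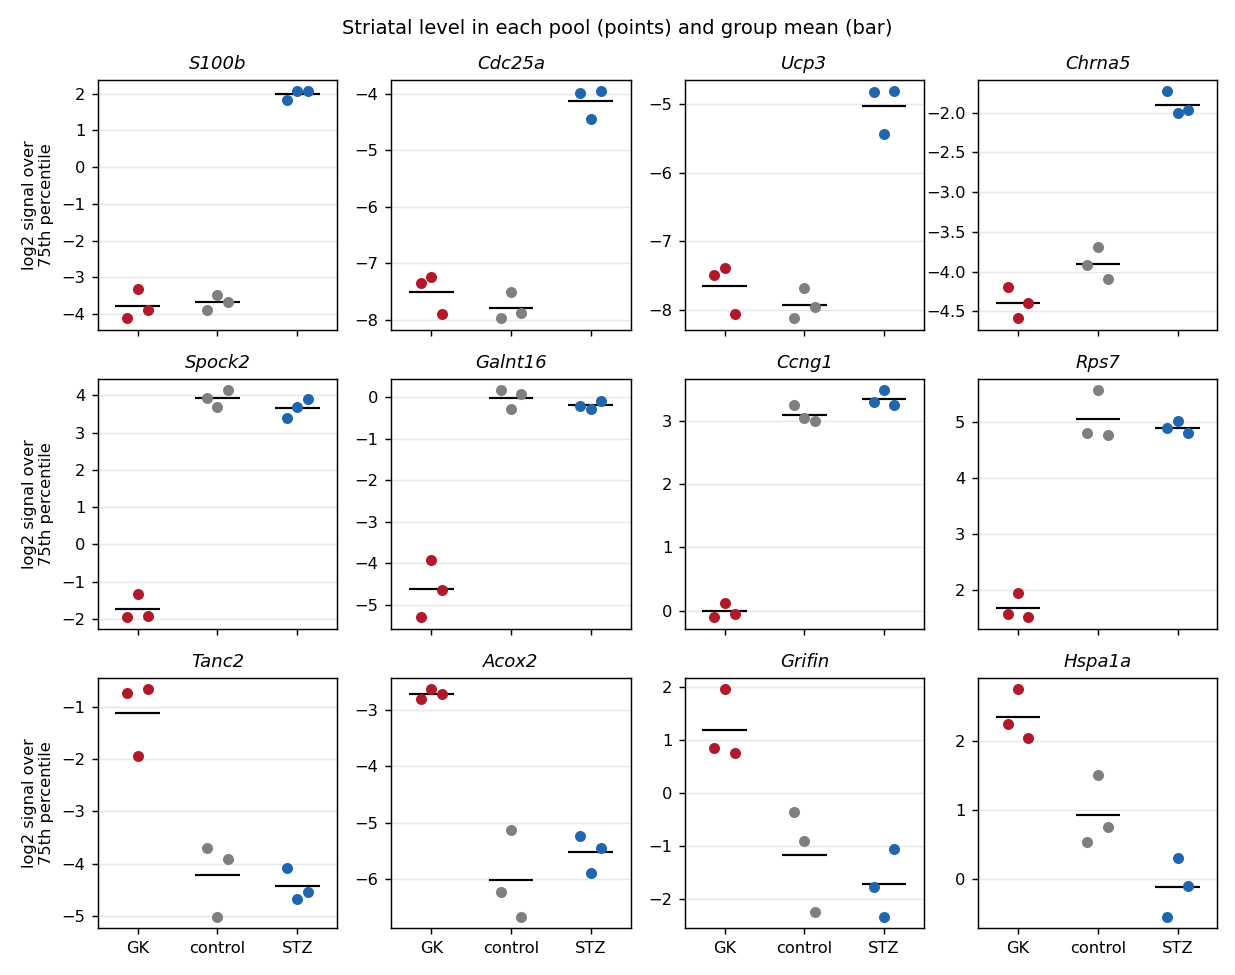
Striatal level (log2 signal over the array's 75th percentile, vertical axes, which differ between panels and do not start at 0) of 12 genes in each pool (points), with the group mean (bar). In the top row the STZ pools stand alone, in the middle row the GK pools are low, and in the bottom row the GK pools are high.

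Galnt16, an enzyme that starts O-linked sugar chains on proteins, was at -5.30, -3.92 and -4.64 in GK and -0.20, -0.28 and -0.10 in STZ, and fell by 4.43 (SE 0.31, adjusted p = 7.4e-05). Rps7, a protein of the small ribosomal subunit, was at 1.58, 1.95 and 1.51 in GK and 4.88, 5.01 and 4.79 in STZ, and fell by 3.22 (SE 0.24, adjusted p = 0.00011). In both, every GK pool lay below every STZ and control pool. Tpcn2, a cation channel of endosomes and lysosomes, was well above background on no GK array and was at least 3.66-fold lower there, with STZ pools at -3.60 to -3.28. Oas1b, an interferon-induced gene, was at least 4.59-fold lower, with STZ pools at -3.86 to -2.41 and control pools between the 2 models at -5.72 to -4.62. Cyp2d5, a cytochrome P450, and Rspo2, which strengthens Wnt signalling, were at least 3.75-fold and 2.26-fold lower. For these 2 the control pools spread widely, from -6.66 to -4.06 for Cyp2d5, whose slide 6 offset was 0.73, and from -6.71 to -3.89 for Rspo2.

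Several of the genes that fell had a second tested probe that did not. Ccng1, a cyclin induced by p53, was at -0.11, 0.12 and -0.05 in GK and 3.29, 3.48 and 3.25 in STZ by one probe (difference -3.35, SE 0.16, adjusted p = 1.35e-05), while the other gave -0.89 (SE 0.32, adjusted p = 0.14). Scn9a, the sodium channel Nav1.7, was at least 6.61-fold lower by a probe at -2.93 to -2.44 in STZ pools, and the other probe gave -0.72 (SE 0.50, adjusted p = 0.40). RT1-Bb, a class II major histocompatibility gene, was at least 5.74-fold lower by one probe, and the other, brighter in GK, gave 0.89 (SE 0.31, adjusted p = 0.12). Kcnq5, a potassium channel of the M current, was at 1.15, 0.89 and 1.39 in GK and 2.81, 3.19 and 3.08 in STZ by one probe (difference -1.88, SE 0.19, adjusted p = 0.00083), and its other probe gave -0.05 (SE 0.25, adjusted p = 0.93).

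The probe pairs are shown to let a reader see that they read different stretches. Within a pair the longest run of shared bases was 4 (Ccng1), 5 (Kcnq5) and 7 (RT1-Bb, Scn9a). The first probe of each pair is the one that fell. The RT1 genes include class I and class II members, some of them alike in sequence, and a probe may read more than 1 of them.
Ccng1, A_44_P367761: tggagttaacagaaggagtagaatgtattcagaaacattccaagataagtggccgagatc
Ccng1, A_44_P235919: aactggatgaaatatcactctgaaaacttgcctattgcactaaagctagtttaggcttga
Scn9a, A_44_P113806: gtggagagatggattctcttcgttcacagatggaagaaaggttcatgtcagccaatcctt
Scn9a, A_44_P386383: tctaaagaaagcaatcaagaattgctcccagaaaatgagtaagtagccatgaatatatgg
RT1-Bb, A_44_P552452: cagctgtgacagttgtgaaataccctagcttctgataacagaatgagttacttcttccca
RT1-Bb, A_44_P500803: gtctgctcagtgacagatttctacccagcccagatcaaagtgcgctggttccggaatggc
Kcnq5, A_44_P953483: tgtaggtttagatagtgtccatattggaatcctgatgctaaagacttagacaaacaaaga
Kcnq5, A_44_P520136: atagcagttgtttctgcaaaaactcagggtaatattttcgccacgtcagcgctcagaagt

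Tanc2, a scaffold protein of the postsynaptic density, showed the largest rise of a named gene. Its level was -0.74, -1.93 and -0.66 in GK, -4.08, -4.68 and -4.54 in STZ, and -3.70, -5.01 and -3.91 in control. All GK pools lay above all others. The difference was 3.32 (SE 0.41, 10.0-fold, adjusted p = 0.0027), and GK differed from control by 3.10 (adjusted p = 0.0042). With slide as a block Tanc2 differed by 2.76 (adjusted p = 0.117). Acox2, a peroxisomal oxidase for branched fatty acids and bile acid precursors, was at -2.82, -2.64 and -2.72 in GK and at -5.89 to -5.24 in STZ, with a difference of 2.80 (SE 0.35, adjusted p = 0.0027). Grifin, a galectin-related protein first known from the lens, was at 0.85, 1.96 and 0.76 in GK, -1.77, -2.33 and -1.06 in STZ, and -2.25 to -0.36 in control, with a difference of 2.91 (SE 0.51, adjusted p = 0.016). Baat, which joins bile acids to amino acids in liver, was at least 2.12-fold higher in GK, with a slide 6 offset of 0.00.

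The other 8 of the 12 largest rises were well above background on no STZ array and had slide 6 offsets of 0.94 to 2.97. They were Serpina3c (a serine protease inhibitor, at least 1.81-fold), Atp8b4 (a phospholipid-flipping ATPase, at least 2.16-fold), Ghrl (the hormone ghrelin, at least 5.38-fold), Cxcl2 (a chemokine that attracts neutrophils, at least 2.92-fold), Ttc39d (at least 1.82-fold) and the olfactory receptor genes Or7d11, Or5b104 and Or6n1 (at least 1.92-fold, 1.77-fold and 1.69-fold). In control pools 1 and 3 Atp8b4 lay at -4.73 and -4.57, near the GK pools (-4.68 to -4.15), and in control pool 2 at -7.44, near the STZ pools (-7.57 to -6.86). With slides 4 and 6 as a covariate over all 27 arrays, a choice made after seeing the data, Or7d11 and Or6n1 no longer differed in the same direction (-0.20 and -0.05).

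The gene lists, chosen with earlier results of these arrays known, gave few calls. Over the whole table the median difference was 0.05, with 1.92% of probes rising and 1.18% falling. 1 of 35 medium spiny neuron genes fell (median -0.01), 1 of 18 striatal interneuron genes rose (median -0.06), and none of 16 cortical excitatory neuron genes was called (median -0.16).

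Pde10a, the cyclic nucleotide phosphodiesterase enriched in medium spiny neurons, was the member that fell. Its level was 2.17, 2.37 and 2.05 in GK, 4.19, 3.75 and 4.01 in STZ, and 4.27, 3.79 and 4.02 in control, with no overlap between the models (difference -1.79, SE 0.19, adjusted p = 0.0013). In hippocampus, where Pde10a was lower in every group, it fell as well, from 0.77 to 0.85 in STZ pools to -1.36 to -1.21 in GK pools. Th, tyrosine hydroxylase, which makes the dopamine precursor and is listed with the interneurons, rose by 1.35 (SE 0.28, adjusted p = 0.033) with a slide 6 offset of 0.94, and its control pools 1 and 3 (-3.20 and -3.01) lay near the GK pools and pool 2 (-3.95) near the STZ pools.

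Of the glial and vascular lists, 1 of 18 astrocyte genes fell (S100b, median 0.07), 1 of 23 microglia and complement genes rose (Cd52, median 0.27), 1 of 21 oligodendrocyte and myelin genes fell (Aspa, median 0.13), and none of 20 endothelium and pericyte genes (median 0.29) or 9 choroid plexus genes (median 0.27) was called. 1 of 15 genes of the meninges and smooth muscle fell (Ogn, median 0.63). The mean level of the astrocyte list was 2.90 to 3.22 in GK pools and 3.18 to 3.37 in STZ pools, and the pools overlapped. Cd52, a surface glycoprotein of lymphocytes and microglia, was at -0.98, 0.01 and -0.16 in GK, -1.72, -2.23 and -1.85 in STZ, and -2.44 to -2.12 in control (difference 1.56, SE 0.27, adjusted p = 0.014). Aspa, aspartoacylase of oligodendrocytes, differed by -1.09 (SE 0.26, adjusted p = 0.049). Ogn, a small proteoglycan, differed by -1.18 (adjusted p = 0.047) by one probe and by 0.49 (adjusted p = 0.40) by another. In these bulk samples, fewer cells of a type and less RNA per cell cannot be told apart.

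Blood genes had the highest median of any list. 4 of 9 rose (median 0.87), the red cell genes Slc4a1 (band 3), Hbb (beta globin), Alas2 (the first enzyme of haem synthesis in red cells) and Epb42 (protein 4.2). Slc4a1, which rose by 2.01, had a slide 6 offset of 0.95, and Hbb, Alas2 and Epb42 had 0.01, 0.06 and -0.25. Hbb was at 0.60, 1.41 and 0.90 in GK, -0.40, -0.995 and -0.45 in STZ, and -0.996 to -0.01 in control (difference 1.59, SE 0.30, adjusted p = 0.023). Alas2 was at 0.76, 1.87 and 1.18 in GK and -0.35 to 0.09 in STZ (difference 1.40, SE 0.27, adjusted p = 0.023). The GK pools lay above the other 6 in both genes. With slide as a block none of the 4 was called, and Hbb differed by 0.84 and Alas2 by 1.46 (adjusted p = 0.57 and 0.232). The mean level of the list was -0.76 to -0.13 in GK, -1.44 to -1.21 in STZ and -1.84 to -1.38 in control pools. The part that blood left in the tissue had in other rises was not tested.

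GK pool 2 also stood apart in a list of markers of neighbouring regions. The 18 genes of the thalamus, septum and hypothalamus had a mean level of -0.40 in GK pool 2 against -1.71 to -1.23 in the other 5 pools of the 2 models. Agrp, an appetite-stimulating peptide of the hypothalamus, was the 1 member of this list that rose, and it did so in each pool, at -2.28, -1.88 and -2.01 in GK, -3.61, -3.72 and -3.80 in STZ, and -3.49 to -3.06 in control (difference 1.65, SE 0.19, adjusted p = 0.0016). It also rose in hippocampus (1.16) and prefrontal cortex (1.37). The choroid plexus list had a mean level of -1.21 in GK pool 2 and -1.55 in STZ pool 2. In the other pools of the 2 models it lay at -2.98 to -2.04, so a pool of each model stood apart there.

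**Figure D4:**
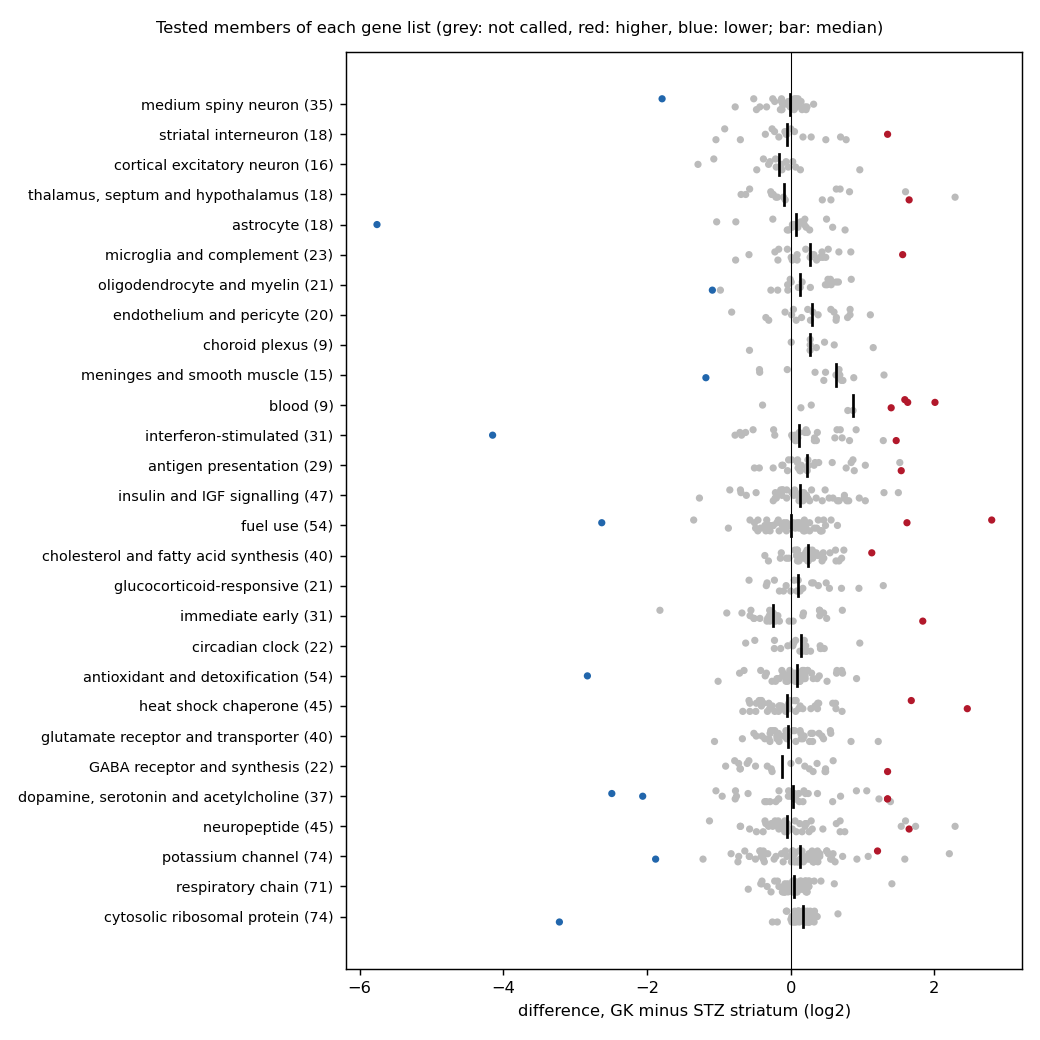
Difference between GK and STZ striatum (log2, horizontal axis) of each tested member of the gene lists (vertical axis, number tested in brackets), with the list median as a bar and called members in colour. The medians lie between -0.24 (immediate early genes) and 0.87 (blood), and most members cluster near 0.

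Among heat shock chaperone genes, 2 of 45 rose (median -0.05). Hspa1a, the inducible 70-kilodalton chaperone, was at 2.25, 2.75 and 2.04 in GK, 0.54, 1.51 and 0.76 in control, and -0.54, 0.31 and -0.09 in STZ (difference 2.46, SE 0.31, adjusted p = 0.0029), and its second probe gave 2.18 (SE 0.33, adjusted p = 0.0072). The 3 groups did not overlap, with control between the models. Hspb1, a small heat shock protein, was at 1.61, 2.33 and 1.6 in GK, 0.93, 0.45 and 0.39 in control, and -0.11, 0.12 and 0.48 in STZ (difference 1.68, SE 0.26, adjusted p = 0.0084).

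Lists tied to insulin and metabolism gave few calls. None of 47 insulin and IGF signalling genes was called (median 0.13), and the 2 with the smallest p were Insr, the insulin receptor (0.81, SE 0.17, adjusted p = 0.033, under 2-fold), and Grb14, which binds that receptor (-0.69, SE 0.18, adjusted p = 0.064). Of 54 fuel use genes (median 0.01), Acox2 and Ppard rose and Ucp3 fell. Ppard, a nuclear receptor for fatty acids, rose by 1.62 (adjusted p = 0.034) with a slide 6 offset of 1.61. 1 of 40 genes of cholesterol and fatty acid synthesis rose (median 0.24), Srebf2, the transcription factor of cholesterol synthesis (1.13, SE 0.21, adjusted p = 0.019). None of 21 glucocorticoid-responsive genes (median 0.11), 22 circadian clock genes (median 0.15) or 71 respiratory chain genes (median 0.05) was called. Of 54 antioxidant and detoxification genes (median 0.08), Ephx2, soluble epoxide hydrolase, fell, from -1.78, -1.65 and -1.67 in STZ to -4.53, -4.39 and -4.68 in GK (difference -2.83, SE 0.22, adjusted p = 0.00015). Of 74 cytosolic ribosomal protein genes (median 0.18), Rps7 fell.

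Immune lists were as sparse. Of 31 interferon-stimulated genes (median 0.12), Mx2, an antiviral GTPase, rose and Oas1b fell. Mx2 was at 0.61, 0.19 and 0.37 in GK, -0.95, -1.39 and -0.88 in STZ, and -2.06 to -1.45 in control (difference 1.47, SE 0.23, adjusted p = 0.0089). 1 of 29 antigen presentation genes rose (median 0.23), RT1-T24-1, a class I RT1 gene (1.54, SE 0.30, adjusted p = 0.026).

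Among transmitter genes, 2 of 37 for dopamine, serotonin and acetylcholine rose and 2 fell (median 0.03). Chrna5 fell, as given above, and so did Colq, the collagen tail that anchors acetylcholinesterase. Colq was at -4.28, -4.23 and -4.76 in GK, -2.42, -2.21 and -2.45 in STZ, and -2.80 to -2.33 in control (difference -2.06, SE 0.20, adjusted p = 0.00079). The 2 that rose were Th and Chrnb4, another nicotinic subunit (1.35, adjusted p = 0.029, slide 6 offset 1.42). Of 22 GABA genes (median -0.13), Slc6a11, a GABA transporter, rose by 1.35 (adjusted p = 0.037) with an offset of 1.16. None of 40 glutamate receptor and transporter genes was called (median -0.04). Of 74 potassium channel genes (median 0.12), Kcnq5 fell and Kcns2, a modifier subunit, rose by 1.21 (adjusted p = 0.029, offset 0.94). Of 45 neuropeptide genes (median -0.05), Agrp rose. Of 31 immediate early genes (median -0.24), Jund, a subunit of the AP-1 transcription factor, was called by a probe whose spots were flagged in GK pools 1 and 3 and left out, so that its difference of 1.84 rests on 1 GK pool. Its second probe gave 1.62 (adjusted p = 0.054).

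The list of genes that the study followed by PCR was chosen on arrays of this series, so that its count is not independent evidence. Of 43 tested probes, 5 rose (Agrp, Cd52, Mx2, Gm2a, Retsat) and 6 fell (Colq, Chi3l1, Pde10a, Prim1, Mobp, Cdk10), with a median of 0.22. Chi3l1, a secreted chitinase-like protein of activated glia, was at -1.49, -0.96 and -1.41 in GK and 0.44, 0.58 and 0.65 in STZ (difference -1.84, SE 0.20). Retsat, retinol saturase, was at 1.51, 2.20 and 1.43 in GK and -0.18, 0.32 and 0.46 in STZ (difference 1.51, SE 0.26). Both were called, and as in nearly all called probes the models did not overlap. Prim1, the small subunit of DNA primase, fell by 1.88 and by 1.28 on its 2 probes. Mobp, a myelin protein, fell by 1.35 by the listed probe, and its other probes gave -0.98 (adjusted p = 0.052) and -0.37 (adjusted p = 0.225). Cdk10, a kinase related to the cell cycle, fell by 1.41, and Gm2a, a lysosomal activator of ganglioside breakdown, rose by 1.12.

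Whether the striatal differences were shared by the other regions was asked of their own arrays, which came from the same animals. In hippocampus 337 of 30051 tested probes were higher in GK than in STZ (1.12%) and 536 lower (1.78%), and in prefrontal cortex 334 (1.1%) and 655 (2.15%) of 30443. Tested in hippocampus were 345 of the 355 striatal falls and 473 of the 577 rises, and in prefrontal cortex 338 and 497. The shares of the striatal lists below count an untested probe as not called, which concerns more rises than falls. Of the 355 striatal falls, 232 were also called lower in hippocampus (65.4% of the striatal and 43.3% of the hippocampal list) and 240 in prefrontal cortex (67.6% and 36.6%), and 199 in both (56.1%). Of the 577 rises, 124 were called higher in hippocampus (21.5% and 36.8%) and 163 in prefrontal cortex (28.2% and 48.8%), and 96 in both (16.6%). Of the rises, 8 were called lower in hippocampus and 1 in prefrontal cortex, and 1 of the falls was called higher in hippocampus.

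**Figure D5:**
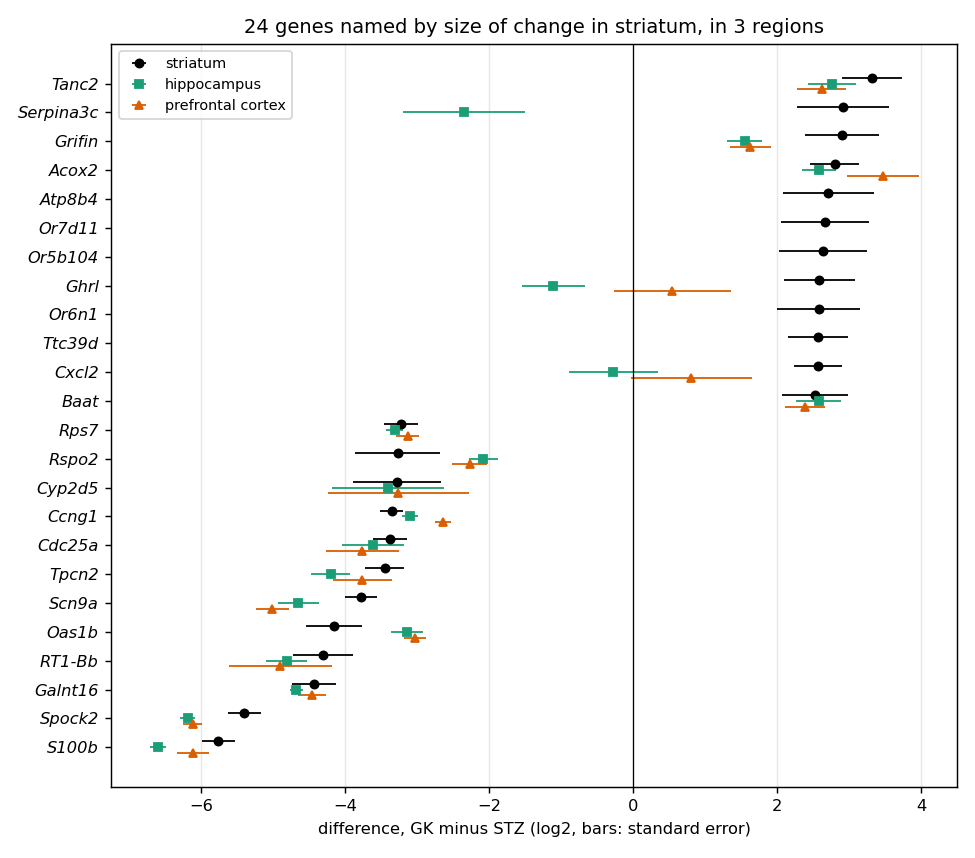
Difference between GK and STZ (log2, horizontal axis, bars for the standard error) of the 24 genes with the largest rises and falls in striatum, in each region where the probe was tested, as differences of measured means also where a group was not well above background. The 12 falls lie at -2.08 or lower in all 3 regions, whereas of the rises Tanc2, Grifin, Acox2 and Baat lie at 1.55 or higher in all 3.

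A test of the difference between regions, over all 27 arrays, called few probes. It takes 1 spread per probe from all 9 groups, though the groups differ in spread. Over the probes tested in striatum the median SD was 0.289 in GK striatum and 0.141 in STZ striatum. In hippocampus it was 0.0882 and 0.167, and in prefrontal cortex 0.202 and 0.15. The standard errors of this test therefore do not follow the spread of each group. The striatal difference was above the hippocampal one for 233 of 31005 probes (0.751%) and below it for 138 (0.445%), and above the prefrontal one for 75 of 31265 (0.24%) and below it for 18 (0.0576%). The split of the hippocampal contrast depended on the scaling, with 174 above and 536 below when the 50th percentile was used and 122 and 249 after quantile normalization. For the prefrontal contrast these splits were 50 and 37, and 45 and 27. The regions came from the same animals, and with the replicate number as a block within animal groups 600 probes were above and 187 below the hippocampal difference, and 86 and 18 the prefrontal one. With slide as a block, whose slide 4 term rests on striatal control pool 1, limma called 0 probes in either test. At an unadjusted p under 0.05 there were then 2698 and 1916 probes, against 7801 and 4636 without the block, and the lowest adjusted p was 0.0522 and 0.0782.

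Dmkn, a secreted protein of epithelia, gave one of the largest contrasts with the hippocampus. Its striatal level was 3.45, 3.56 and 3.19 in GK and 3.48, 3.38 and 3.39 in STZ, with overlap, whereas in hippocampus the GK pools lay at -0.76 to -0.44 and the STZ pools at -3.93 to -3.22. The differences, -0.02 and 2.86, differed by -2.88 (SE 0.30, adjusted p = 6.8e-05). Htr2a, the serotonin 2A receptor, was at -1.82, -3.14 and -2.02 in GK and -1.6, -1.24 and -1.28 in STZ striatum, and at -2.11 to -1.81 and -3.38 to -3.12 in hippocampus, so that its differences of -0.95 and 1.25 ran in opposite directions (contrast -2.20, SE 0.39, adjusted p = 0.0083). Hs3st5, an enzyme of heparan sulfate, was lower in GK striatum by 0.87 (-3.21 to -2.88 against -2.24 to -2.13 in STZ) and at least 1.39-fold higher in GK hippocampus, where no STZ array was well above background (contrast of the measured means -2.27, SE 0.41, adjusted p = 0.0088).

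Against prefrontal cortex, Ocm, the calcium-binding protein oncomodulin, was at 0.95, 0.50 and 0.21 in GK and -0.81, -0.41 and -1.16 in STZ striatum, and at -3.61 to -2.96 and -1.84 to -1.31 in prefrontal cortex. Every GK pool was above every STZ pool in striatum and below every one in prefrontal cortex, and the contrast was 2.94 (SE 0.43, adjusted p = 0.0023). Grhl3, a transcription factor of epithelia, was well above background on no GK striatal array and at least 5.00-fold lower there (STZ pools -3.25 to -2.74), and overlapped in prefrontal cortex (-4.63 to -3.93 and -4.21 to -3.75), with a contrast of the measured means of -2.55 (SE 0.35, adjusted p = 0.0014).

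Ccng1 was called in the same direction under each of 28 alternatives, and S100b, Spock2, Rps7, Ephx2, Kcnq5, Chi3l1, Prim1 and Hspa1a in 27 of 28, the exception being the methods' t-test (Welch's form, probe by probe) after adjustment. At the other end, 6 of the 55 called genes kept their call in at most 50% of the alternatives that gave a value, Aspa in 12 of 28, Atp8b4, Or7d11, Or5b104 and Or6n1 in 11 of 26 and Serpina3c in 13 of 26. Aspa, Ogn, Atp8b4, Or7d11, Or5b104, Or6n1, Ghrl, Ppard, Slc6a11 and Kcns2 lost it with any 1 of the 6 GK and STZ pools left out. The number of rises was 127 without STZ pool 3 and 1748 without control pool 2, and the number of falls 175 and 921.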

How the data were processed

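Each sample was striatal, hippocampal or prefrontal RNA pooled from 3 animals and hybridised in 1 colour to an Agilent rat array. Per the submitters' processing notes, Agilent Feature Extraction 9.1 was used. The deposited scanner values are the authors' processed signal intensity, background-subtracted and not scaled between arrays, and the deposited series values are identical to it over 42429 features per array (largest relative difference 0, column medians 85.7 to 187, hence linear signal intensity).

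Processed signals were divided by the 75th percentile of their array and taken to log2, with control spots and outlier-flagged spots left out. limma 3.58.1 (R 4.3.3) was fitted to the 9 striatal arrays in 3 groups and, for contrasts between regions, to all 27 arrays. Tested probes were well above background in 2 or 3 pools of one of the groups compared, with Benjamini-Hochberg adjustment over all of them. Groups came from the sample titles. P-values measure the spread between pools, and 3 arrays per group limit the precision. The scripts were tested on simulated data with normal spread, without slide differences or a detection limit. That test therefore says nothing on slide or on dim probes.

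Of 41012 probes, 20035 received a current symbol (10735 by accession, 5571 by symbol, 3729 by synonym). No genome build was given in the sources used here, so no positions are printed. Named genes were the 12 largest rises and falls with a symbol and no overlap between the models, up to 4 called members per list (2 with the smallest p where none was called), the 4 largest contrasts between regions in each direction, the label markers and the study's PCR list. A result that this rule selects among the contrasts between regions is not reported here. Members and lists were chosen with earlier results of these data known.

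Replicate numbers did not pair the arrays of the 2 models (correlations of deviations 0.0129, -0.00407 and -0.123). Alternatives were other scalings, normexp background correction with an offset of 50, other filters, the methods' t-test, no fold threshold, array weights, slide and replicate blocks (without probes whose missing spots tie the contrast to the block) and each array left out. Chosen after seeing the data were slides 4 and 6 as a covariate, removal of probes with a slide 6 offset of at least 0.5, and normexp with local background capped at the array's 99.9th percentile.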

Additional observations from a re-analysis of the deposited data

Results flagged for a closer look

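Contrasts between regions in the GK minus STZ difference were flagged because the interaction term of limma was past the threshold, for 371 probes against hippocampus and 93 against prefrontal cortex. None of them was past it with slide as a block.

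Against hippocampus, 4 named genes had a higher striatal difference: Serpina3c (5.27), Or5b104 (4.49), Wfdc5 (3.90) and Or7e171d (3.76), with slide 6 offsets of 1.35 to 2.48. All 4 were well above background on no STZ striatal and no GK hippocampal array, so that the contrasts of measured means have no exact size. In striatum they were at least 1.81-fold, 1.77-fold, 2.21-fold and 1.73-fold higher in GK, and in hippocampus Serpina3c was at least 1.04-fold lower and the other 3 allow no bound. The 4 with a lower striatal difference were Dmkn (-2.88), Fmo13 (-2.76), Hs3st5 (-2.27) and Htr2a (-2.20). Fmo13, a flavin-containing monooxygenase, was at least 1.47-fold lower in GK striatum and well above background on no GK or STZ array of the other regions.

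Against prefrontal cortex, Zp2 (3.08), Ocm (2.94), Umod (2.88) and Sftpc (2.62) had a higher striatal difference. Zp2, a protein of the egg coat, Umod, uromodulin of the kidney, and Sftpc, surfactant protein C of the lung, were well above background on no GK prefrontal array and at least 1.70-fold, 2.80-fold and 2.26-fold lower there. In striatum no GK or STZ array had Zp2 well above background, while Umod was on 2 GK arrays and 1 STZ array, and Sftpc on 1 of each. Fmo13 (-2.89), Grhl3 (-2.55) and Chst9 (-2.27) had a lower one. Chst9, a sulfotransferase, was at least 1.45-fold higher in GK prefrontal cortex, where no STZ array was well above background, and in striatum it was well above background on 1 GK array and no STZ array.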

How the results depend on the processing

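Against 932 called probes in striatum (577 higher, 355 lower), normexp gave 67 (23 and 44), the 2 models alone 2700 (1728 and 972), all 27 arrays 1510 (683 lower), array weights 2621 (1686 and 935), slide as a block over 27 arrays 194 (71 and 123), and the methods' t-test 5 after adjustment (1 and 4) and 2313 before it (1569 and 744). Normexp failed on striatal control pool 2 and prefrontal STZ pool 2, where the highest local background was 53967 and 16193, and with that background capped 213 were lower. Leaving out probes with a slide 6 offset of at least 0.5 gave 318 higher. With arrays left out in turn, 302 to 2669 were called, 127 to 1748 higher and 175 to 921 lower, with the lowest counts without STZ pool 3 and the highest without control pool 2.

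Replicate numbers did not pair the samples; with the replicate block 599 were called, 316 of them higher and 283 lower. For the contrasts between regions the replicate block within animal groups gave 787 (600 higher) against hippocampus and 104 against prefrontal cortex.

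Against hippocampus (371, 233 higher and 138 lower), the 50th percentile gave 710 (536 lower), quantile normalization 122 higher and 249 lower, normexp 6 (2 and 4), capped normexp 568 (444 higher), no fold threshold 669 (375 and 294), the 2 regions alone 88 lower, array weights 2663 (1939 and 724), slides 4 and 6 as a covariate 576 (470 higher), and slide as a block 0 (0 and 0). Left-out arrays gave 126 to 976, 70 to 622 higher and 55 to 462 lower.

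Against prefrontal cortex (93, 75 higher and 18 lower), the 50th percentile gave 37 lower, quantile normalization 45 higher, normexp 4 (3 and 1), capped normexp 46 (37 and 9), no fold threshold 35 lower, the 2 regions alone 24 (19 and 5), array weights 2075 (1521 and 554), slides 4 and 6 as a covariate 232 (189 and 43), and slide as a block 0 (0 and 0). Left-out arrays gave 45 to 131, 36 to 100 higher and 9 to 31 lower.

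Directions turned for Or7d11 (-0.20) and Or6n1 (-0.0478) with slides 4 and 6 as a covariate, for Or6n1 with slide as a block (-0.23), for Drd2 with that covariate (-1.41, adjusted p = 0.0415), and with normexp for the prefrontal contrasts of Fmo13 (0.23) and Chst9 (0.40). With the local background capped, 0 of the 7 named prefrontal contrasts turned. The other causes were not tested.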
